A study of Mus musculus with 2 samples.

Results

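Transcripts of 10 chemokine and cytokine genes that fibroblasts can secrete were followed in NIH3T3 cells, an established mouse embryonic fibroblast line. The genes are Ccl2, Ccl7, Ccl8, Cxcl1, Cxcl5, Cxcl12, Cx3cl1, Csf1, Lif and Il6, and all 10 were found among the 22838 genes of the deposited table. They were chosen by name, with earlier results of these data known. The study concerns SRRD, a protein linked to heme production and circadian rhythm. It compared messenger RNA of untreated cells, 1 library, with that of cells exposed to ALA at 100 µM over 16 h, also 1 library. ALA is not spelled out by the submitters; in heme biology it usually means δ-aminolevulinic acid, from which cells build heme. The labels name no genetic change or other agent in either library. With 1 library per group no difference below has a replicate check, no p-value is given, and culture and treatment cannot be told apart. Values are FPKM, fragments per kilobase of transcript scaled to the number of mapped fragments, so they are per length and can be compared between genes.

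Chemokines are small secreted proteins that guide white blood cells along a gradient, and they are classed by the spacing of their first cysteines into CC, CXC and CX3C types. They act on receptors that couple to G proteins, while the cytokines LIF and IL-6 act through gp130, JAK kinases and STAT3, and CSF1 acts through a receptor tyrosine kinase on macrophages. In fibroblasts many of these genes are held at a low level and are induced by serum, injury or inflammatory signals through NF-kB and AP-1. Their messages are often short-lived, because AU-rich elements in the 3′ untranslated region (UTR) recruit decay factors.

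In the ALA library 8 of the 10 genes had lower values than in the untreated library, Cxcl5 was higher, and Il6 was listed at 0 in both. The lower genes ranged from Csf1, 1.18-fold lower, to Lif, 6.03-fold lower, both as plain ratios of FPKM. A call used log2 of (ALA + 1)/(untreated + 1), with both values in FPKM, which damps differences of low genes. It was made for genes whose mean over both libraries reached 1 FPKM, called measured genes. Of the 8 genes that reached this mean, 5 were at least 1.5-fold lower (Ccl2, Ccl7, Ccl8, Cx3cl1 and Lif), where 7.16% of 10929 genes were. Ccl8 and Lif were at least 2-fold lower, where 2.01% of the genes were. Both average 1 to 5 FPKM, and the 2.01% is not matched to that level. Of 8607 genes averaging at least 5 FPKM, 1.21% were at least 2-fold lower, so the share below that mean was higher. None of the 8 was at least 1.5-fold higher, against 5.90% of all. Lower by any amount were 7 of the 8, where 52.2% of the genes were, and 8 of all 10, where 31.7% of all 22838 were. Lif reached the mean only through its untreated value, so these counts describe the genes and are no support for a change. Over all 10 genes, without the minimum, 5 were again at least 1.5-fold lower, where 4.33% of 22838 genes were. Many of the 22838 were listed at 0 in both libraries and cannot be lower, which makes the shares over all of them smaller. Scaling both libraries to equal FPKM totals turned the split of 782 lower against 645 higher genes at 1.5-fold into 643 against 854. It left 4 of the 8 genes at least 1.5-fold lower, where 5.87% of 10953 genes were. In bulk RNA, fewer cells that make a message and less message per cell cannot be told apart.

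**Figure D1:**
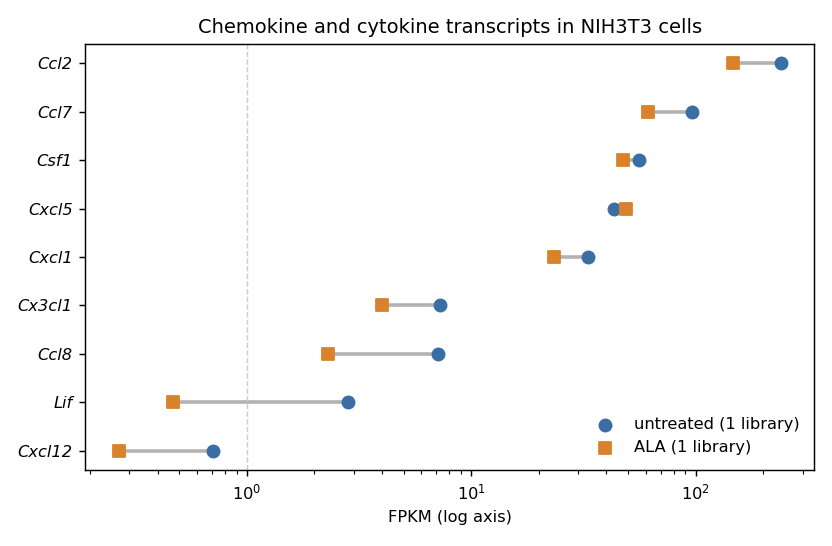
FPKM on a log axis for the 9 genes with a value above 0, with a circle for the untreated library and a square for the ALA library, 1 library each. The squares lie to the left of the circles for 8 genes, from Ccl2 at 241 and 146 FPKM to Cxcl12 at 0.709 and 0.268 FPKM, and to the right for Cxcl5. The dashed line marks 1 FPKM, and Il6 is not drawn because it was listed at 0.

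The labelled cell type was checked against markers. Of 11 fibroblast markers 10 were above 1 FPKM, with Col1a1 at 1047 and 980.2 FPKM, while Lum was listed at 0. Dcn, Pdgfra and Thy1 were at least 1.5-fold lower with ALA, at log2 ratios of -0.95, -0.64 and -0.62, where 7.16% of measured genes were. With equal FPKM totals Pdgfra and Thy1 were at -0.56 and -0.54, short of the call. Markers of macrophages and blood cells summed to 30.3 FPKM untreated and 20.1 FPKM with ALA over 12 genes, but only Cd14 (13.1 and 4.69) and Lyz2 (15.2 and 9.59), which make up most of the sums, were lower with ALA. The other 10 were higher, all at 1.42 FPKM or less: Cd68 was at 0.237 and 1.4, Laptm5 at 0.412 and 1.29, Ptprc at 0.367 and 0.754, Tyrobp at 0 and 0.541, and Aif1 at 0.949 and 1.42 FPKM. The defining genes Adgre1, Itgam, Csf1r and Spi1 were at 0 untreated and at 0.120 FPKM or less with ALA. The 7 lymphocyte markers summed to 2.34 and 5.82 FPKM, led by Ms4a1 at 1.05 and 2.45, and the 6 endothelial markers, led by Pecam1, to 0.395 and 0.939 FPKM. The 7 epithelial markers summed to 85.4 and 115 FPKM, nearly all of it Krt14 at 84.2 and 114, of which 19.8% of the sequence also occurs in another gene. The part of these markers in the results was not tested.

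The most abundant of the 10 was Ccl2, which encodes MCP-1, the main attractant of monocytes through the receptor CCR2. Its level was 241 FPKM untreated and 146 FPKM with ALA, which ranked Ccl2 289 and 484 among all genes. This was a 1.65-fold lower value, with an approximate 95% counting interval of 1.58 to 1.72. The interval rests on about 4662 and 3839 reads, estimated from FPKM, transcript length and a depth of roughly 23800000 and 32300000 reads, and it covers counting error only. Ccl7, which encodes MCP-3, a ligand shared by several monocyte receptors, had 96.8 and 61.3 FPKM. It was 1.58-fold lower (counting interval 1.48 to 1.69), so these neighbours had about the same ratio, and their intervals overlap. Ccl2 stood above Ccl7 by 2.49-fold in untreated cells and by 2.38-fold with ALA. The Ccl7 call was lost with equal FPKM totals, where its log2 ratio went from -0.65 to -0.57.

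Ccl8 encodes MCP-2, the third monocyte chemoattractant of the group, and was far less abundant. It went from 7.10 FPKM to 2.30 FPKM with ALA, a value 3.08-fold lower with a counting interval of 2.07 to 4.63 from about 86 and 38 reads. That interval lies above those of Ccl2 and Ccl7, so the ratio of Ccl8 was lower by more than counting error allows. The log2 ratio of Ccl8 was -1.29, and of 2322 genes averaging 1 to 5 FPKM, the range of Ccl8 and Lif, 14.4% were at least 1.5-fold lower.

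The 3 genes lie in 1 cluster of CC chemokine genes on the plus strand of chromosome 11 (GRCm38 positions from RefSeq). Ccl2 spans 82035577 to 82037452, Ccl7 starts 10.1 kb after it, and Ccl8 starts 79.6 kb after it. Between Ccl7 and Ccl8 lie Ccl11, the gene of eotaxin, with 0.112 and 0.335 FPKM, and Ccl12, listed at 0 in both libraries. Ccl1, at the far end, was also listed at 0. Within 144 kb, therefore, 3 of 6 chemokine genes were above 1 FPKM in both libraries, and all of those were lower with ALA. They are Ccl2, Ccl7 and Ccl8, already counted above, and 52.2% of all measured genes were lower by any amount.

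**Figure D2:**
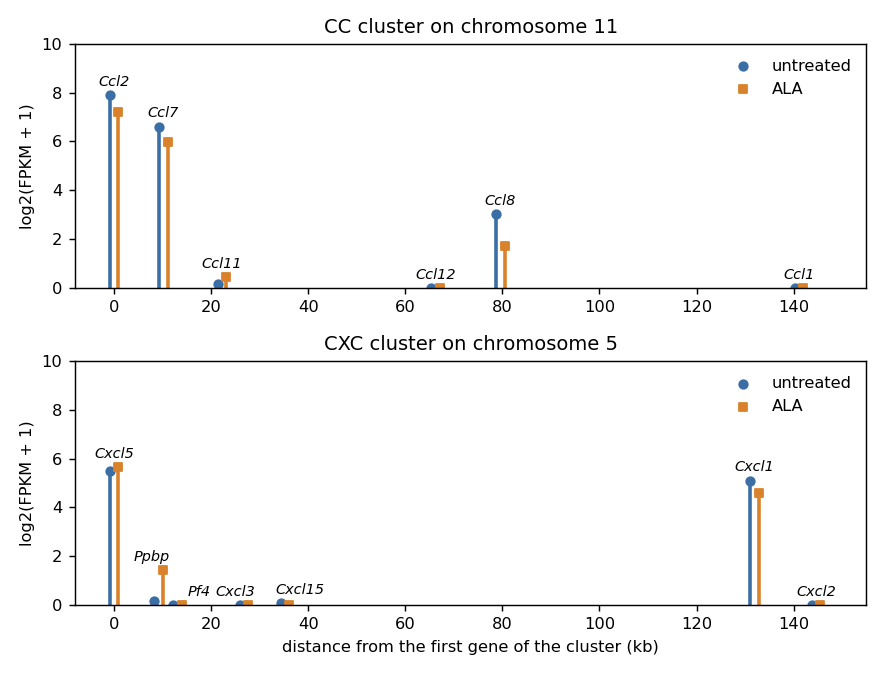
Levels as log2(FPKM + 1) along the CC cluster (upper panel) and the CXC cluster (lower panel), plotted by distance in kb from the first gene, with circles for the untreated and squares for the ALA library, set just left and right of the gene's position. Ccl2, Ccl7 and Ccl8 are lower with ALA in the first cluster, while in the second Cxcl5 is slightly higher and Cxcl1 lower, with little or no signal at most genes between them.

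Both CXC genes of chromosome 5 code for attractants of neutrophils through CXCR2, yet their values differed in direction. Cxcl1, which encodes KC, a classical early-response gene of fibroblasts, had 33.3 FPKM untreated and 23.4 FPKM with ALA. It was 1.42-fold lower, with a counting interval of 1.29 to 1.58, and did not reach the 1.5-fold call at a log2 ratio of -0.49. Cxcl5, which encodes LIX, had 43.4 FPKM untreated and 48.8 FPKM with ALA, or 1.12-fold higher with a counting interval of 1.06 to 1.20 as a ratio of ALA to untreated. The counting intervals of these ratios do not overlap, but without replicates the difference between the genes was not tested. As a result Cxcl5 stood 1.30-fold above Cxcl1 in untreated cells and 2.09-fold above it with ALA.

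The CXC cluster spans 147 kb on the plus strand, from Cxcl5 at 90759298 to 90761625 to the end of Cxcl2. Cxcl1 lies 132 kb after the start of Cxcl5, at 90891245 to 90893121. Of the 5 other genes, Pf4, Cxcl3 and Cxcl2 were listed at 0 in both libraries and Cxcl15 was at 0.0564 and 0 FPKM. Ppbp, which encodes platelet basic protein and starts 9.22 kb after the start of Cxcl5, was at 0.120 FPKM untreated and 1.66 FPKM with ALA, on about 3 and 58 reads. With a mean under 1 FPKM Ppbp entered no count, and it was named after its values were seen.

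Cx3cl1 encodes fractalkine, a chemokine made as a membrane protein that tethers CX3CR1-bearing cells and is released by the proteases ADAM10 and ADAM17. It had 7.27 FPKM untreated and 4.0 FPKM with ALA, 1.82-fold lower with a counting interval of 1.60 to 2.06. Cxcl12 encodes SDF-1, which keeps stem cells and lymphocytes near stromal cells through CXCR4. It was low in both libraries, at 0.709 and 0.268 FPKM, on about 95 and 49 reads if the longest coding transcript of 5627 bases is taken. Cxcl12 was 2.64-fold lower as a plain ratio (counting interval 1.85 to 3.79), but its log2 ratio with the added 1 was only -0.43. At that level it was left out of the counts, and with a pseudocount of 0.1 FPKM its log2 ratio was -1.14.

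Summed over 40 chemokine genes, the 7 named above and 33 others, FPKM went from 448 in the untreated library to 302 in the ALA library. The 7 made up 95.9% and 94.9% of those sums, and Ccl2 alone 53.8% and 48.5%. The share of Cxcl5 was 9.69% untreated and 16.2% with ALA. The pool of chemokine messages was thus dominated by monocyte attractants in both libraries, with Cxcl5 taking a larger share with ALA.

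Csf1, the growth and survival factor of macrophages, had the ratio nearest to 1 among the lower genes. Its values were 55.7 FPKM untreated and 47.2 FPKM with ALA, a 1.18-fold difference with a counting interval of 1.14 to 1.22, well short of the 1.5-fold call. Il34, which encodes the other ligand of the CSF1 receptor, had 15.9 and 7.48 FPKM, 2.12-fold lower with an interval of 1.88 to 2.40. Csf1 therefore stood 3.50-fold above Il34 in untreated cells and 6.31-fold above it with ALA. The 2 genes code for proteins that act on the same receptor, and their ratios differed by more than counting error.

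Lif, which encodes leukemia inhibitory factor, a gp130 cytokine known for keeping mouse embryonic stem cells undifferentiated, had the lowest ratio of the 10. It went from 2.81 FPKM untreated to 0.467 FPKM with ALA, 6.03-fold lower as a plain ratio with a counting interval of 4.53 to 8.07 from about 270 and 61 reads. The log2 ratio with the added 1 was -1.38. It was -2.36 with a pseudocount of 0.1 and -0.52 with 5, so the size of the log2 difference, though not its sign, rests on this choice. Il6, which encodes interleukin-6, a related cytokine of inflammation, was listed at 0 in both libraries, as were the cytokine genes Il1b and Csf2, and so has no ratio.

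**Figure D3:**
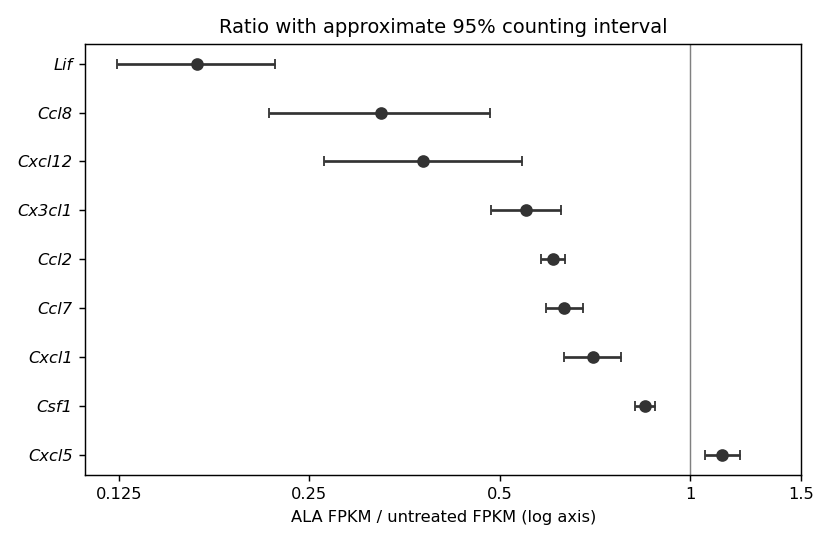
Ratio of ALA FPKM to untreated FPKM on a log axis for 9 genes, with approximate 95% counting intervals as bars, which cover counting error in 1 library per group and no variation between cultures. Lif (0.166), Ccl8 (0.324) and Cxcl12 (0.378) lie farthest to the left, and Cxcl5 (1.12) alone lies to the right of 1.

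The 5 called genes were picked by this same log2 ratio, so their low place among all measured genes was fixed by the call. The median log2 ratio of the 8 measured genes was -0.68, beside -0.02 for all 10929 genes. Over all 10 genes the median was -0.57, beside 0 over all 22838, many of which were listed at 0 in both libraries. At the level of Ccl2 and Ccl7, of 1707 genes averaging 50 FPKM or more, 3.63% were at least 1.5-fold lower. At the level of Cx3cl1 the share was 5.58%, of 6900 genes averaging 5 to 50 FPKM.

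**Figure D4:**
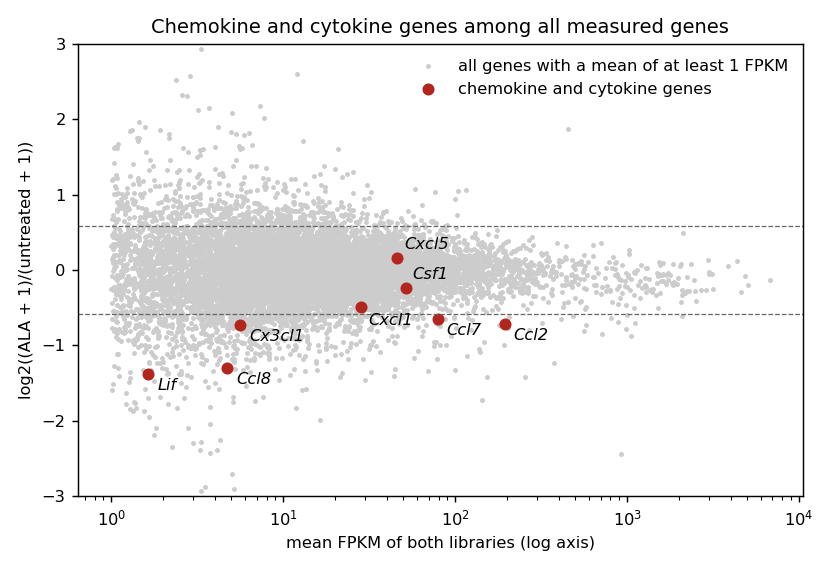
Log2((ALA + 1)/(untreated + 1)) against mean FPKM on a log axis for 10929 measured genes (grey), among them 8 of the chemokine and cytokine genes (red). Dashed lines mark 1.5-fold, and 9 genes fall outside the plotted range. Lif, Ccl8, Cx3cl1, Ccl2 and Ccl7 lie under the lower line and Cxcl1, Csf1 and Cxcl5 between the lines.

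The regulatory sequence of these genes is shown for the genes on which the results turn: Lif and Ccl8 with the lowest ratios, Cxcl1 with its dense motifs, and Il6, which was listed at 0. A promoter in RefSeq (build GRCm38.p6) was found for 7 of the 10 genes, and not for Ccl2, Ccl7 and Cxcl5. The 250 bases before the transcription start were searched on both strands for the NF-kB consensus, for the AP-1 motif TGANTCA and for the hypoxia response core ACGTG. Each promoter is written 5′ to 3′ on the strand of its gene, with matches in capitals.
Lif (chr11:4257318-4257567, plus strand): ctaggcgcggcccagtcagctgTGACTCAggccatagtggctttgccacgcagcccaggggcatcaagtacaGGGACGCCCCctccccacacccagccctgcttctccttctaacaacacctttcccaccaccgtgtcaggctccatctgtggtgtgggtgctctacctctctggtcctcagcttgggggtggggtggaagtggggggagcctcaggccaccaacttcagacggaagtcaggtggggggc
Ccl8 (chr11:82114935-82115184, plus strand): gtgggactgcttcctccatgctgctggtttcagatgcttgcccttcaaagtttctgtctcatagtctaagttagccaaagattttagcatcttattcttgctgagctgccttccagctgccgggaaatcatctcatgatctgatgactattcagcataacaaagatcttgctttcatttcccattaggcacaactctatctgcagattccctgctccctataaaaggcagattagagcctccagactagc
Cxcl1 (chr5:90890995-90891244, plus strand): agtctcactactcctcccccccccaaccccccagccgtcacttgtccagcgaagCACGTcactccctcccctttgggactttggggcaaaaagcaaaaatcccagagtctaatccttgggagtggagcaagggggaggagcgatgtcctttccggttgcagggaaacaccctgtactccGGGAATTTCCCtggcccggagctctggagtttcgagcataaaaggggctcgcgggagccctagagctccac
Il6 (chr5:30012864-30013113, plus strand): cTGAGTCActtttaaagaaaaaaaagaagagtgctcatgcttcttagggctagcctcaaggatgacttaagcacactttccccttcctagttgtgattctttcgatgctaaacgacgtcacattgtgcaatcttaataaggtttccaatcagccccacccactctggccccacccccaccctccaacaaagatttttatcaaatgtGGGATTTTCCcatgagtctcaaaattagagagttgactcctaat

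The NF-kB consensus was found in 4 of the 7 promoters, those of Cxcl1, Csf1, Lif and Il6, where 7.25% of 32851 mouse promoter windows hold it. In Cxcl1 it lies 71 to 62 bases before the start and reads GGGAATTTCC, and a match on the other strand overlaps it by all but its first base. In Il6 it reads GGGATTTTCC, 44 to 35 bases before the start, and in Lif GGGACGCCCC, 178 to 169 bases before it. TGANTCA was found in Lif, 228 to 222 bases before the start, and in Il6, 249 to 243 bases before it, where 6.75% of the windows hold it. ACGTG was found in Cxcl1, on the minus strand, where 16.6% of the windows hold it. None of the 3 motifs was in the windows of Ccl8, Cxcl12 and Cx3cl1. The ratios of ALA to untreated were 0.324 for Ccl8, 0.378 for Cxcl12 and 0.550 for Cx3cl1, the genes without a match. They were 0.166 for Lif, 0.702 for Cxcl1 and 0.849 for Csf1, the genes with one and a value above 0. A relation between motifs and ratios was not tested. A match in these letters is a description and no evidence of binding.

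In the 3′ UTR, the pentamer ATTTA, the core of AU-rich elements, was present in 9 of the 10 genes, all but Ccl8, and in 65.9% of 20515 coding genes. The nonamer TTATTTATT, the site favoured by the decay factor tristetraprolin, was present in Cxcl1, Cx3cl1 and Lif, 3 of 10, and in 7.70% of coding genes. At least 3 pentamers within 60 bases were found in Cxcl1, Csf1, Lif and Il6, 4 of 10, and in 5.58% of coding genes. The 3′ UTRs were those of the longest coding transcript in GENCODE vM21, from 165 bases in Ccl8 to 5188 in Cxcl12. Stretches of 30 bases that hold the nonamer are shown, with each ATTTA in capitals.
Cxcl1, bases 81 to 110 after the stop codon: gggtcctATTTATTTAtgtATTTATTTAtt
Lif, bases 2699 to 2728 after the stop codon: agaagcaaaggggcctttATTTAttATTTA
Cx3cl1, bases 283 to 312 after the stop codon: caccccaactccagtgaacaattATTTAtt

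Over the whole 3′ UTR Cxcl1 had the highest density, with 7 pentamers in 592 bases or 11.8 per kb, followed by Il6 with 10 in 1668 bases. Within any 60 bases Cxcl1 and Il6 each held at most 4. Ccl8 had none in 165 bases. Whether the density of pentamers goes with the ratios was not tested.

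Receptors for these ligands were mostly low or absent in NIH3T3 cells, apart from the shared chain gp130, the IL-6 receptor chain Il6ra and the scavenger Ackr3. Of 11 signalling receptors 4 reached a mean of 1 FPKM. On the log2 ratio with the added 1 FPKM, 0 of them was past 1.5-fold in either direction. Of all measured genes 7.16% were lower and 5.90% higher by that much. Il6st, the gene of gp130, had 148 and 136 FPKM, Il6ra 10.5 and 11.2 FPKM, and Lifr 1.32 and 1.59 FPKM. Ccr1, a receptor of CCL7, went from 1.72 to 0.875 FPKM, and its log2 ratio of -0.54 did not reach the call. As a plain ratio Ccr1 was 1.97-fold lower (counting interval 1.47 to 2.65), and it reached the mean only through its untreated value. Ccr2 was listed at 0 in both libraries, and Ccr3, Cx3cr1 and Csf1r at 0 untreated and under 0.05 FPKM with ALA. Cxcr2 had 0.341 and 0.197 FPKM and Cxcr4 0.254 and 0.542 FPKM. The messages of ligands for monocytes and neutrophils were thus present in cells in which those of the receptors CCR2, CX3CR1 and CSF1R were at or near 0. Cxcr2, the neutrophil receptor gene, was low in both libraries, while Ccr1 reached the mean of 1 FPKM.

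Ackr3 encodes an atypical receptor that removes CXCL12 without G protein signalling. Its 73.3 FPKM untreated stood against 46.2 FPKM with ALA, 1.58-fold lower with a counting interval of 1.52 to 1.65, and a log2 ratio of -0.65, which became -0.58 and lost the call with equal FPKM totals. The other atypical receptors were under 0.5 FPKM in both libraries: Ackr4 was at 0.464 and 0.0333, Ackr1 at 0 and 0.0382, and Ackr2 at 0.0155 and 0.0489 FPKM. Ackr3 and its ligand gene Cxcl12 were both lower with ALA, and at every value Ackr3 was the far more abundant message.

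Of the 33 other chemokine genes of the mouse, 3 reached a mean of 1 FPKM and 19 were listed at 0 in both libraries. Ccl9, a CC chemokine that acts on CCR1, had 7.04 FPKM untreated and 2.31 FPKM with ALA. It was 3.04-fold lower, with a log2 ratio of -1.28 close to the -1.29 of Ccl8. Ccl25 had 6.78 and 6.10 FPKM and Ccl28 2.16 and 1.95 FPKM, log2 ratios of -0.13 and -0.10, although 2.74% of the Ccl25 exon bases lie in Elavl1 and reads there cannot be assigned without strand.

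Other secreted cytokines went both ways. Of 22 genes 11 reached a mean of 1 FPKM, with 2 at least 1.5-fold lower and 2 at least 1.5-fold higher, and a median log2 ratio of -0.36. Of all measured genes 7.16% were lower and 5.90% higher by that much. Il33, the gene of an alarmin stored in the nucleus, had 10.7 and 4.49 FPKM (log2 ratio -1.09), and Il34, described above, was at -0.99. Il18, an inflammasome-processed cytokine, was 1.58-fold higher, from 10.9 to 17.2 FPKM, and Flt3l, a growth factor of dendritic cells, was 2.12-fold higher, from 1.63 to 3.45 FPKM. Of the Flt3l sequence 19.1% also occurs in another gene, so its value is uncertain.

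For signalling by LIF and IL-6, 13 of 13 listed genes were above the minimum, with a median log2 ratio of -0.25. At least 1.5-fold lower were 2 of them and at least 1.5-fold higher none, where 7.16% and 5.90% of measured genes were. Cish, a feedback inhibitor induced by STAT proteins, went from 4.12 to 0.962 FPKM, 4.28-fold lower with a log2 ratio of -1.38. Cish reached the mean only through its untreated value. Bcl3, an atypical IkB protein and STAT3 target, went from 13.1 to 5.89 FPKM (-1.03). Osmr, which pairs with gp130 in the oncostatin M receptor, was at -0.58, just short of the call, and Socs3, the main brake on gp130, at -0.37. Stat3 itself had 53.2 and 47.8 FPKM.

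Among NF-kB subunits and inhibitors 1 of 13 genes was at least 1.5-fold lower and 1 at least 1.5-fold higher, with a median log2 ratio of 0.02. The shares of all measured genes were 7.16% and 5.90%. Tnfaip3, which encodes the feedback inhibitor A20, was lower at -1.16 (3.42 and 0.986 FPKM), and Nfkbib, the gene of IkB-beta, higher at 0.75. Of the Nfkbib sequence 13.1% also occurs in other genes. Nfkbie and Nfkbiz were at -0.41 and -0.38, and Rela, the gene of the p65 subunit, had 29.9 and 30.3 FPKM. Of 9 AP-1 and C/EBP genes above the minimum, 2 were at least 1.5-fold lower, where 7.16% of measured genes were. They were Atf3 at -1.36 (2.29 and 0.284 FPKM) and Fosl1 at -0.90, of which Fosl1 shares 57.2% of its exon bases with another gene. Tnfaip3 and Atf3 reached the mean only through their untreated values. Jund was at 0.54, or 0.62 and past 1.5-fold with equal totals, although 49.1% of its sequence also occurs in another gene, and Cebpd was at -0.42. Of 10 decay factors of cytokine messages none passed 1.5-fold: Zfp36, the gene of tristetraprolin, was at -0.29, Zc3h12a and Elavl1 both at -0.21, and Zfp36l2 at -0.19. None of 4 measured proteases passed it either, with Rhbdf1 at -0.31, Adam17 at -0.23, Mmp2 at -0.17 and Adam10 at -0.08, which was 0.0018 with equal totals.

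**Figure D5:**
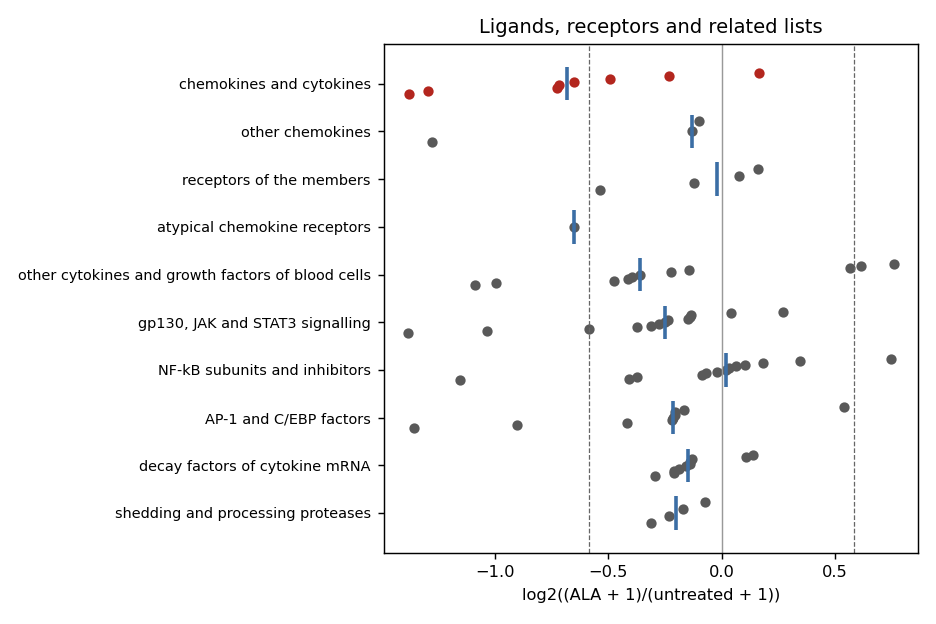
Log2((ALA + 1)/(untreated + 1)) of each measured gene, by list, with a blue bar at the median of the list and dashed lines at 1.5-fold. The chemokine and cytokine genes (red) have a median of -0.68, while the medians of the receptors and of NF-kB genes lie at -0.02 and 0.02. The list of atypical receptors holds 1 gene, Ackr3.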

How the data were processed

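Single-end reads of 41 bases came from 1 untreated and 1 ALA library. The authors deposited FPKM values per gene, in a Cufflinks tracking table per the file headers. FastQC 0.11.5, TopHat2 2.1.1, Cufflinks 2.2.1 and build mm10 are named in the submitters' processing notes. Annotation, strand setting, options and scaling: not given in the sources used here. The deposited bounds equalled each other in 100% of rows, so they carry no error. All 10 genes had status OK, at most 0.700% of their 41-base stretches occur in other genes, and no exon base lies in another gene of the table.

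Log2 ratios used a pseudocount of 1 FPKM and calls a mean of at least 1 FPKM. The number of reads was inferred from the spacing of low FPKM values. Over 461 low genes 40.3% of ratios between the libraries lay near ratios of small whole numbers at the relative depth used (1.36), against 27.1% at other depths, so depth is approximate. Intervals are exact conditional binomial 95% intervals on reads of the longest coding transcript. The calculation was tested on simulated counts. All 10 genes are named, with the receptors except 1 that is not reported here, every other chemokine gene above 1 FPKM, and up to 4 genes with the largest log2 ratios of each other list. A few other genes were named after their values were seen. The genes and lists were chosen with earlier results of these data known. Python 3.11.15, numpy 2.4.6, pandas 2.3.3 and scipy 1.17.1 were used.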

Additional observations from a re-analysis of the deposited data

How the results depend on the processing

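Of 49 values of single genes under another pseudocount, another scaling or the plain ratio, an alternative added after the data were seen, 10 moved beyond their counting interval. The values of Il6 among the 49 are 0 under any setting and could not move. Another pseudocount cannot change the sign of a ratio, and under the 2 other scalings none of the 9 genes with values above 0 changed sign. With a pseudocount of 5 FPKM, 3 of the 8 genes were at least 1.5-fold lower and 0 at least 2-fold lower, with a median log2 ratio of -0.48, and the share of all genes at least 1.5-fold lower was 2.74%. With a mean of at least 5 FPKM required, 3 of 6 genes were at least 1.5-fold lower and 0 at least 2-fold lower, since Lif and Ccl8 drop out, where 5.19% and 1.21% of 8607 genes were. A pseudocount of 0.1 raised the share of all genes at least 2-fold lower from 2.01% to 3.56%. With equal totals Clcf1, a gp130 cytokine gene, was past 1.5-fold higher at 0.64 (0.57 as reported), and Lyz2 was at -0.54 (-0.61 as reported). Equal totals shift log2 ratios of well-expressed genes up by 0.08. The low read numbers of Ccl8, Lif and Cxcl12 limit the precision of their ratios. No paired analysis was possible because each group has 1 library.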

Other observations

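The sequence features that several of the chemokine and cytokine genes share were also counted over all measured genes. Of 871 genes with the NF-kB consensus in a promoter window, 7.12% were lower with ALA by at least 1.5-fold, beside 6.95% of 8360 genes with a promoter. Of 831 genes with TTATTTATT in the 3′ UTR the share was 6.50%, and of 553 genes with at least 3 ATTTA in 60 bases 7.23%, beside 6.39% of 10012 coding genes. The share at least 1.5-fold higher was 3.37% and 4.16% for these 2 groups, beside 5.26%. These are counts in 1 pair of libraries, with no test.

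Beside Ppbp, another chemokine gene near 0 in the untreated library was listed above 1 FPKM with ALA: Ccl27a, a skin chemokine, went from 0.161 to 1.77 FPKM. Of its sequence 49.9% also occurs in other genes, and how the reads were assigned is not known. Ccl5, a CC chemokine of T cells and inflamed stroma, was at 0.735 FPKM untreated and listed at 0 with ALA. All of these were named after their values were seen.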
